A study of Mus musculus with 2 samples.

Results

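The genes described here encode 8 core proteins of the AKT and mTOR pathway: the kinases Akt1 and Akt2, the kinase Mtor with its partner subunits Rptor and Rictor, the inhibitors Tsc1 and Tsc2, and the GTPase Rheb. They were chosen by name, not by their values, and all 8 of them were found among the 18194 genes that the array's annotation pairs with probe sets of a single gene. RNA came from the cerebrum at postnatal day 14 of 1 wild-type sample and 1 mutant sample, described as littermates, the mutant being homozygous for laggard (lag). This spontaneous recessive allele disrupts a splice site of Kif14, a kinesin that acts in cytokinesis, in every cell of the animal. The line descends from 1 founder mouse of mixed 129/SVJ, C57BL/6N and DBA/2N origin and was backcrossed to C57BL/6J. Each sample was hybridised to 1 Affymetrix mouse array, and the sources do not give the number of mice behind either sample. Without replicates the variation among mice could not be measured, so ratios are described and no test is made.

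AKT is activated by phosphorylation once PI3-kinase, downstream of growth factor receptors, has made its lipid signal at the membrane. AKT then phosphorylates Tsc2, which releases Rheb from the Tsc1 and Tsc2 complex, and Rheb switches on the mTOR complex that holds Rptor (mTORC1). mTORC1 drives protein and lipid synthesis, while the complex that holds Rictor (mTORC2) phosphorylates AKT itself. In oligodendrocytes, the cells that make myelin in the brain, active AKT enlarges myelin sheaths and mTOR is needed for differentiation. The pathway works through phosphorylation of proteins, so that mRNA levels describe the supply of its parts and not its activity.

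The values are MAS5 signals, linear intensities that the authors scaled to the same trimmed mean on both arrays, 500.0 after trimming 2% of probe sets from each end. A signal of 49.0 was taken as the background level, from probe sets of gene families that brain does not transcribe, and 13903 genes lay above it on at least 1 array. Where a gene had several probe sets, the one brightest on average over both arrays stood for it. Signals of different probe sets are not on a common scale, so each is compared with itself on the other array, and a pair of signals is given wild-type first. Sums of signals over marker genes, given for cell types, use the same probe sets on both arrays and give most weight to the brightest of them. Kif14 itself, at 6.85 on the wild-type array against 0.733 on the mutant array by its single probe set, was under background and does not check the labels. RNA integrity, read as the 3'/5' ratio of the Actb controls, was 1.55 for the wild-type array against 1.38 for the mutant array.

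The mutant array held signals of the 8 genes close to those of the wild-type array. By log2 ratio of mutant over wild-type, 4 of the 8 were lower and 4 higher, between -0.17 for Akt1 and 0.25 for Rheb. No gene of the 8 was at least 1.5-fold lower, where 3.54% of all measured genes were, and no gene was at least 1.5-fold higher, where 4.27% were. At 2-fold the counts were also 0 and 0, beside 1.03% of all measured genes lower and 0.748% higher. The median log2 ratio of the 8 genes was -0.016, and that of all measured genes 0.012. At these background rates, 8 genes would hold few or no calls in either direction, so the counts do not set the genes apart.

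**Figure D1:**
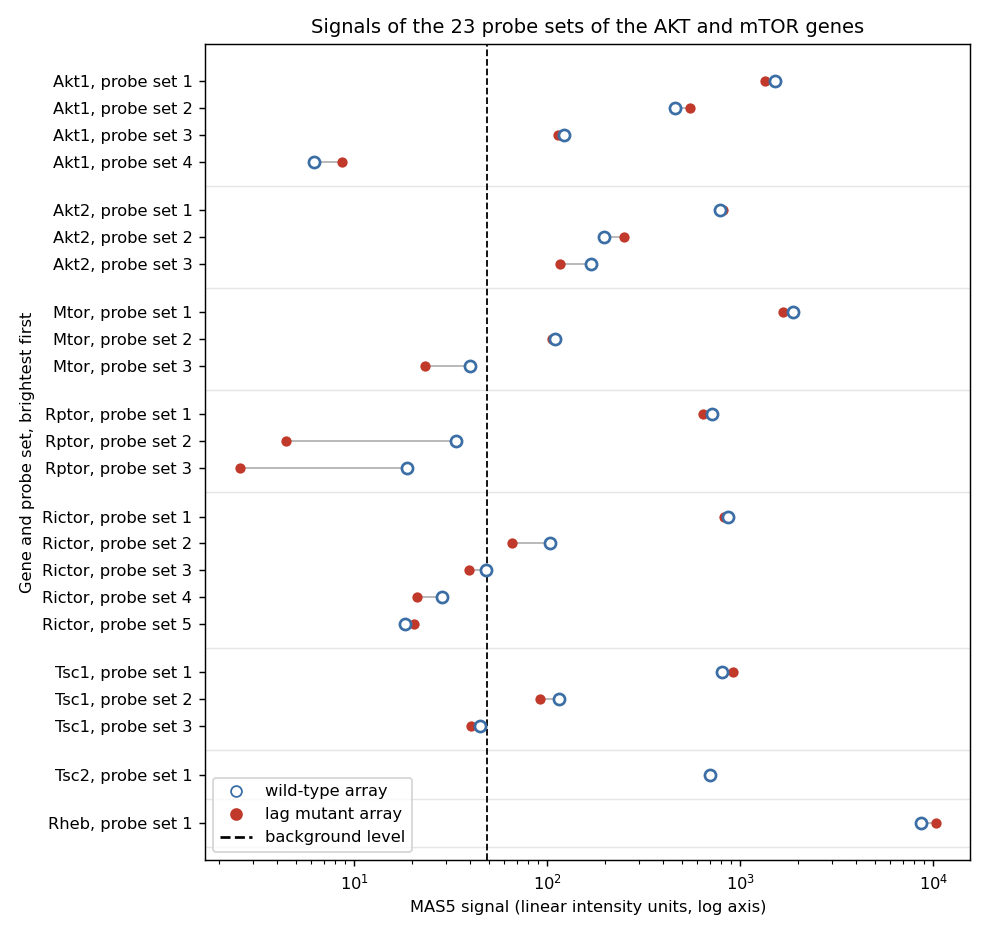
MAS5 signal of each of the 23 probe sets of the 8 genes on the wild-type array (open blue circles) and the lag mutant array (red dots), on a log axis, with the background level of 49.0 dashed. The brightest probe set of each gene has nearly the same signal on both arrays, and the wide gaps of the dim Rptor probe sets lie left of the dashed line.

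Akt1, the AKT kinase tied mainly to growth and survival, had a wild-type signal of 1518 and a mutant signal of 1349, a log2 ratio of -0.17. Its second probe set went the other way, from 461 to 548, and the next from 123 to 114. The mean log2 ratio over these 3 probe sets was -0.011, with an SD of 0.23 between them, so the probe sets gave Akt1 no single direction. The remaining one, at 6.17 and 8.70, lay under background on both arrays.

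Akt2, the AKT kinase best known for insulin-stimulated glucose uptake, had by its brightest probe set, whose identifier marks probes shared between transcripts, a wild-type signal of 782 and a mutant signal of 811. A dimmer probe set went from 197 to 249, a log2 ratio of 0.34, and the dimmest from 169 to 116, a log2 ratio of -0.54. The mutant signal was thus higher by 2 of the 3 probe sets and lower by the other, and the SD between them, 0.45, was larger than the ratio of the brightest, 0.052. Among the genes with several probe sets above background on both arrays, Akt2 had the largest SD between them.

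Mtor, the kinase at the core of both complexes, had a wild-type signal of 1868 and a mutant signal of 1675, a log2 ratio of -0.16. The second probe set, at 110 and 106, was also lower in the mutant, by 0.052 on the log2 scale. Both measured probe sets of Mtor pointed one way, the larger difference being 1.12-fold. The other probe set, at 40.0 and 23.3, was under background on both arrays.

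Rptor, the scaffold that brings substrates to mTORC1, had a wild-type signal of 718 and a mutant signal of 641 by its only probe set above background, a log2 ratio of -0.16. Its other probe sets went from 33.8 to 4.42 and from 18.8 to 2.56. These are the largest ratios of signals as deposited among the 23 probe sets, 7.65-fold and 7.36-fold, but they compare values that both lie under the background level and give no fold change for Rptor.

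Rictor, the subunit that defines mTORC2, had a wild-type signal of 862 and a mutant signal of 826, a log2 ratio of -0.061. A dim probe set went from 104 to 65.4, a log2 ratio of -0.67. It was the 1 probe set of the 15 above background on both arrays that was at least 1.5-fold lower, beside 4.42% of all 23103 such probe sets. Rictor as read by its brighter probe set hardly differed, and the 3 remaining probe sets, between 18.4 and 48.3 on both arrays, were under background.

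Tsc1, which stabilises Tsc2 in the complex that restrains Rheb, had a wild-type signal of 809 and a mutant signal of 917, a log2 ratio of 0.18. Its second probe set went from 116 to 91.7, a log2 ratio of -0.34, so the direction depended on the probe set. The remaining Tsc1 probe set, at 44.7 and 40.1, was under background on both arrays. Tsc2, the subunit that acts on Rheb and that AKT phosphorylates, had 1 probe set, with 694 on the wild-type array against 709 on the mutant array. This difference, 2.08%, was the smallest of the 8 genes. By their brightest probe sets both brakes were thus slightly higher in the mutant, and the dim probe set of Tsc1 was not.

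Rheb, the GTPase that switches on mTORC1, had a wild-type signal of 8645 and a mutant signal of 10298 by its single probe set, 19.1% higher. This was the largest difference of the 8 genes by their brightest probe sets. With the measured genes split by mean signal into 4 groups of equal size, 3476 genes fell into the brightest, and of these 15.1% had a larger log2 ratio in size. Rheb had no further probe set against which to set this value.

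The spread across all measured genes was used as the measure of error within the same 4 groups. In the brightest group the central 95% of log2 ratios ran from -0.37 to 0.41, and Akt1, Mtor and Rheb, which belong to it, lay inside. In the next brightest it ran from -0.51 to 0.48, and Akt2, Rptor, Rictor, Tsc1 and Tsc2 lay inside it. This spread mixes differences between genotypes with array noise and with differences between the mice. A second gauge is the spread within a gene, which had a median SD of 0.19 over the 5987 genes that had 2 or more probe sets above background on both arrays. The SD was 0.075 for Mtor, 0.37 for Tsc1 and 0.43 for Rictor. Only Rheb had a log2 ratio larger in size than 0.19. That value is a median, however, and the 90th percentile of these SDs was 0.47. Rheb, with its single probe set, has no such SD of its own. Differences of the size seen for Akt1, Mtor, Rptor and Rheb cannot be told from probe set scatter on these arrays.

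**Figure D2:**
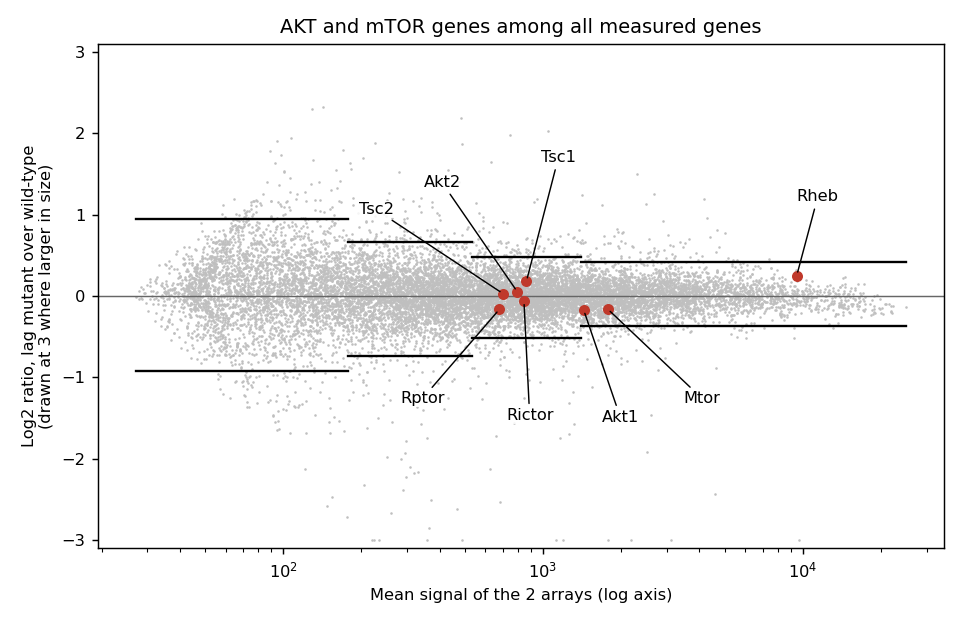
Log2 ratio of the lag mutant signal to the wild-type signal, against the mean signal of the 2 arrays on a log axis, for the 13903 measured genes (grey) and the 8 AKT and mTOR genes (red). Black lines bound the central 95% of ratios in each of 4 equal groups of genes by mean signal, and all 8 genes lie between them, the highest being Rheb at 0.25.

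The rest of the pathway was read from a list of 81 further genes, of which 77 were paired and all 77 were above background. Of these, 2 were lower by 1.5-fold or more (2.60%) and 3 were higher (3.90%), beside the 3.54% and 4.27% of all measured genes. Their median log2 ratio was 0.016, with 37 lower and 40 higher. The remaining listed genes were not analysed here. Of 46 listed genes that had 2 or more probe sets above background on both arrays, 29 had probe sets on both sides of 0.

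The growth factor and PI3-kinase arm feeds the signal to AKT. Of its 16 measured genes 1 was at least 1.5-fold lower and none higher, with a median of -0.041. Inppl1, a phosphatase that removes the lipid made by PI3-kinase, had a wild-type signal of 478 and a mutant signal of 297 by its only probe set, 1.61-fold lower. Igf1, the growth factor that acts on this arm, went from 1478 to 1038 by its brightest probe set and from 1433 to 1010 by the next. Both Igf1 probe sets gave a log2 ratio of -0.51, short of 1.5-fold, while its 2 dim probe sets gave 0.19 and -0.12. Its receptor gene Igf1r stood at 935 and 800, and the insulin receptor gene Insr at 507 and 529. Igf2, a related growth factor, stood at 3569 and 4236. By their brightest probe sets the brightest kinase-side genes differed little, with the regulatory subunit Pik3r1 at 3622 and 3149 and the catalytic subunit Pik3cd at 11223 and 11402. The Pik3cd value rests on 1 probe set far brighter than its others. Dimmer Pik3cd probe sets went from 314 to 280 and from 110 to 64.4, the latter a log2 ratio of -0.77, and the rest were under background. Pdpk1, the kinase that phosphorylates AKT directly, stood at 2441 and 2529. Apart from Inppl1 and Igf1, the genes of this arm had log2 ratios of at most 0.29 in size by their brightest probe sets. Some dimmer probe sets went further in either direction, with log2 ratios of -0.52 for Igf1r and 0.44 for Pik3ca, a catalytic subunit.

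Among the other subunits and regulators of the complexes, none of 10 genes was at least 1.5-fold different, and the median was -0.14 with 7 lower. Mlst8, a subunit of both mTOR complexes, stood at 374 on the wild-type array against 352 on the mutant array. Deptor, an mTOR inhibitor, went from 402 to 316. Of its 5 probe sets above background on both arrays, however, 1 went from 149 to 209 and another from 66.6 to 68.4. Mapkap1, a subunit of mTORC2, went from 1505 to 1223, and Akt1s1, an mTORC1 subunit that AKT phosphorylates, from 1090 to 1261. Tbc1d7, a further subunit of the TSC complex, stood at 730 and 684. The genes of mTORC1 and mTORC2 thus had small ratios of either sign.

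The amino acid arm brings mTORC1 to the lysosome, where Rheb acts. Of its 22 measured genes 1 was at least 1.5-fold higher and none lower, with a median of 0.033. Nprl3, a subunit of the complex that blocks this arm, had a wild-type signal of 230 and a mutant signal of 347 by its single probe set, 1.51-fold higher, just past the threshold. That call was lost when ratios were centred on the median of all genes, where its log2 ratio was 0.58 and 2 pathway genes were higher by 1.5-fold or more. The GTPase gene Rraga stood at 4632 and 4306, and the anchoring subunits Lamtor1 and Lamtor5 at 6009 and 6169 and at 4037 and 4354. By their brightest probe sets Rraga, Lamtor1 and Lamtor5 were thus nearly level between the arrays. Lamtor3, a further anchoring subunit, was not, going from 2724 to 2054 by its single probe set. Its log2 ratio of -0.41 was the lowest of this arm and lay below the lower bound of -0.37 given above for the brightest group. Lamtor2, at 2128 and 2169, and Lamtor4, at 2026 and 1865, differed less.

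The energy and stress arm restrains mTORC1 through AMP-activated kinase and through stress-induced inhibitors. Of its 9 genes 1 was at least 1.5-fold higher and none lower, with a median of 0.059. Ddit4l, a stress-induced inhibitor of mTORC1, had a wild-type signal of 276 and a mutant signal of 526, 1.91-fold higher. A second Ddit4l probe set went from 114 to 272, and another stood at 123 and 120, so not all of its probe sets showed the difference. Its paralog Ddit4 went from 2091 to 1685 by its single probe set. The kinase subunits Prkaa2, at 1249 and 1278, and Prkag2, at 1429 and 1781, were within 1.5-fold.

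Effectors lie downstream of AKT and mTOR. Of 20 measured effector genes 1 was lower by 1.5-fold or more and 1 was higher, with a median of 0.00080. Gsk3a, a kinase that AKT inactivates, had a wild-type signal of 1582 and a mutant signal of 3772, 2.38-fold higher and the largest difference among the pathway genes. It rests on 1 probe set. Its paralog Gsk3b stood at 4445 and 4869 by its brightest probe set, and 5 dimmer Gsk3b probe sets were lower in the mutant, the lowest going from 361 to 169. The paralogs were thus not higher together on these arrays. Tfeb, the regulator of lysosomal genes that mTORC1 holds in the cytoplasm, had a wild-type signal of 157 and a mutant signal of 102 by its single probe set, 1.54-fold lower. That call was lost under quantile normalization, where its log2 ratio was -0.54, and when the background level was set at the 99th percentile of those probe sets. Eif4ebp1, a translation repressor that mTORC1 inactivates, stood at 141 and 182, with its probe sets on both sides of 0. The translation factor genes Eif4e, at 3805 and 3354, and Eif4b, at 3886 and 3684, were within 1.5-fold. The transcription factor gene Foxo3, at 537 and 794, was also short of 1.5-fold. Its log2 ratio of 0.56 nevertheless lay above the upper bound of 0.48 given above for the next brightest group, to which it belongs. A second Foxo3 probe set stood at 546 and 610, a log2 ratio of 0.16.

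**Figure D3:**
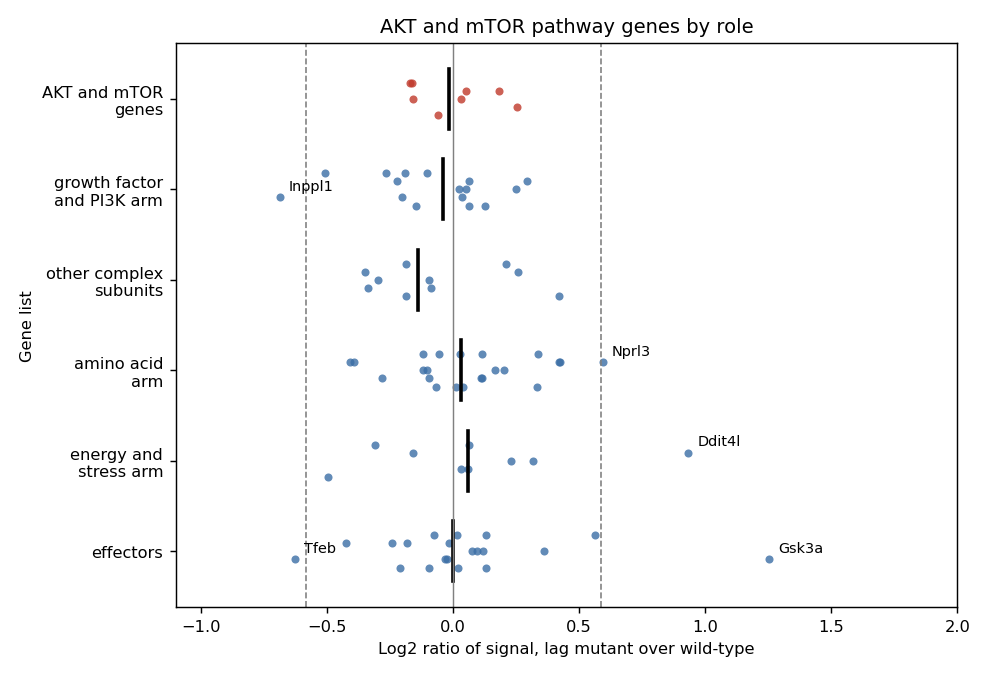
Log2 ratio of the lag mutant signal to the wild-type signal, for the 8 AKT and mTOR genes (red) and 77 further pathway genes (blue) by role. Each point is a gene by its probe set of highest mean signal, spread vertically for sight alone, black bars are medians and dashed lines mark 1.5-fold; only Inppl1, Tfeb, Nprl3, Ddit4l and Gsk3a lie outside them, Gsk3a farthest at 1.25.

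Lists of genes whose transcription is known to respond to the pathway were read the same way. Of 43 such genes measured, 1 was at least 1.5-fold lower (2.33%) and none higher, beside the 3.54% and 4.27% of all measured genes. At those rates 43 genes would hold few calls, so the counts do not set them apart. Their median log2 ratio was -0.031. Lipid synthesis genes driven by SREBP, which mTORC1 activates, had a median of -0.11 over 10 genes, with 9 lower and none by 1.5-fold. Fasn, the fatty acid synthase, stood at 3940 on the wild-type array against 3427 on the mutant array, Fdft1, of sterol synthesis, at 4497 and 4174, and Hmgcs1 and Scd2 were lower by 10.1% and 12.2%. Idi1, an enzyme of isoprenoid synthesis, stood at 3217 and 2453, a log2 ratio of -0.39, just outside the central 95% of the brightest group, and the other 9 genes lay inside that of their groups. A second Idi1 probe set went the other way, from 1396 to 1498.
Lysosomal genes that Tfeb regulates had a median of -0.028 over 11 genes, the lowest at -0.14 and the highest at 0.17. Lamp1 stood at 6226 and 6106, Ctsb, a lysosomal protease, at 5149 and 4796, and the proton pump subunit Atp6v0d1 at 7846 and 7973. The lower Tfeb signal thus stood beside level signals of its lysosomal targets.
Genes driven by ATF4, a factor of amino acid supply, had a median of 0.080 over 12 genes, with 4 lower and 8 higher. Atf4 went from 2652 to 3325, Asns, the asparagine synthetase, stood at 3275 and 3569, and Slc3a2, an amino acid transporter subunit, at 2714 and 3229. Psat1, an enzyme of serine synthesis, was the 1 gene of the 12 past 1.5-fold, at 2355 and 1471, 1.60-fold lower. A second Psat1 probe set went from 1222 to 1361, so its direction depended on the probe set. Phgdh, the first enzyme of serine synthesis, had 4 probe sets, all marked for possible cross-hybridisation and all lower in the mutant. The one of highest mean signal stood at 2204 and 1563. Its log2 ratio of -0.50 was short of 1.5-fold but below the lower bound of -0.37 of the brightest group. Another Phgdh probe set, brighter on the wild-type array alone, went from 2572 to 1159, a log2 ratio of -1.15. Glycolysis genes, which mTORC1 raises through HIF, had a median of -0.050 over 10 genes, with Aldoa at 11413 and 10099, Pgk1 at 7947 and 8324 and Gapdh at 16521 and 16332.

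The near level signals of the pathway stood beside a large difference in markers of oligodendrocytes. All 11 measured oligodendrocyte markers were at least 2-fold lower in the mutant, with a summed signal of 35725 on the wild-type array against 2599 on the mutant array and a median log2 ratio of -2.71, in which ratios against a mutant signal under background are bounds. The defining marker Mog had a mutant signal of 1.45, under background. Of 8 precursor and premyelinating markers all were lower by 1.5-fold or more, and 5 by 2-fold or more, their summed signal going from 18204 to 6055. None of the 8 AKT and mTOR genes had a ratio near these values. In bulk RNA, fewer cells of a type and less RNA per cell cannot be told apart, and the signal of genes that all brain cells transcribe is a sum over cell types, so these arrays do not give the level of Akt1, Mtor or Rptor in oligodendrocytes.
Neuron markers were level, none of 10 being 1.5-fold different, with a summed signal of 99634 and 99204. Forebrain genes were present, since all 6 forebrain markers measured were above background on both arrays. All 6 were higher in the mutant, with Neurod6 at 3338 and 4557 and a summed signal of 8039 and 10551. Tbr1, at 992 and 1639, was the 1 past 1.5-fold. Astrocyte markers were 6 of 8 lower, summed at 45307 and 40647, but Gfap, the 1 past 1.5-fold, was higher, at 156 and 274. Microglia markers were 6 of 7 higher, summed at 7713 and 9089, with C1qb, the 1 past 1.5-fold, at 766 and 1169. Endothelial markers were 5 of 6 lower, summed at 5659 and 5194, none by 1.5-fold. Whether these marker differences go with different numbers of cells, or take part in the ratios of Rheb, Akt1 or Igf1, was not tested.

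**Figure D4:**
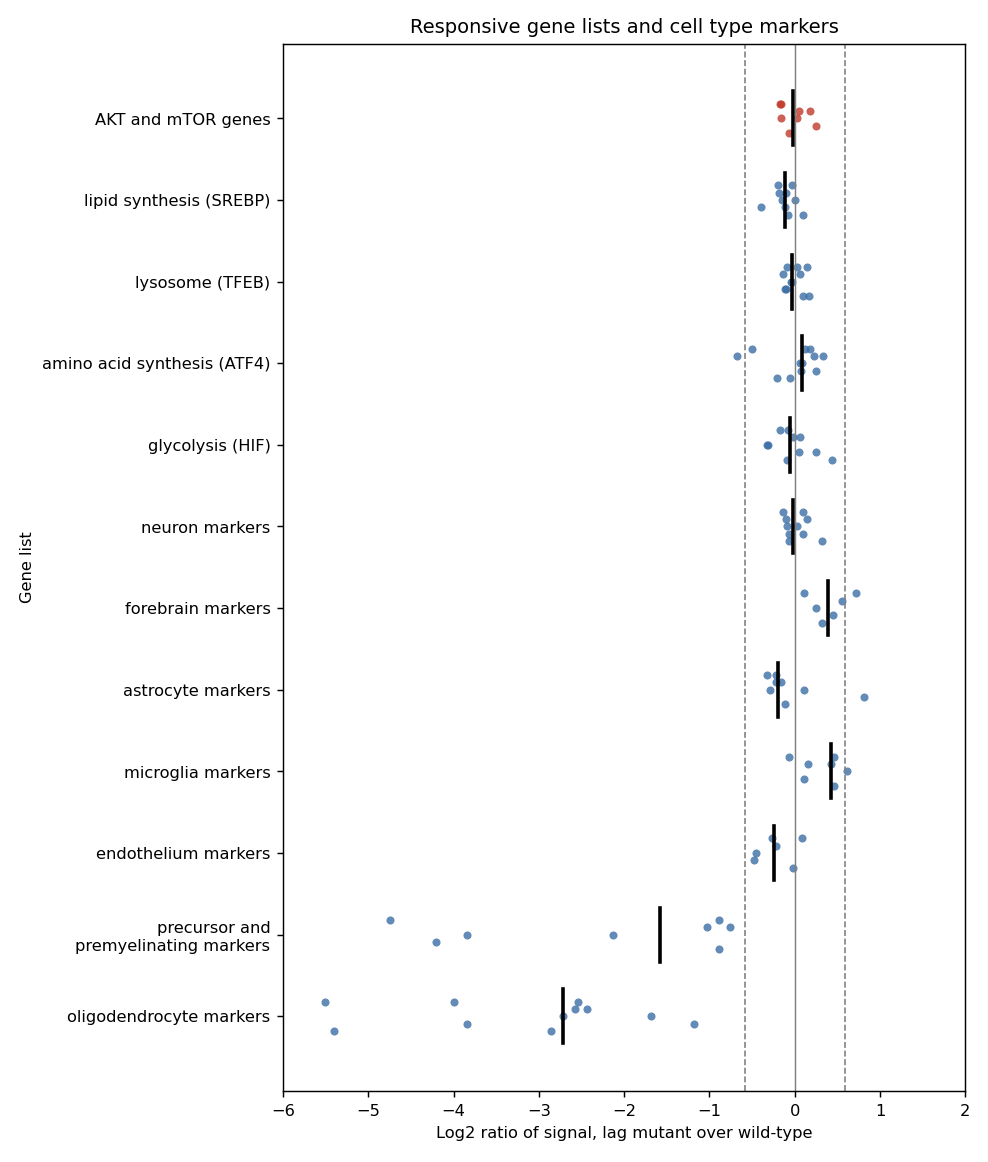
Log2 ratio of the lag mutant signal to the wild-type signal, for the AKT and mTOR genes (red), genes known to respond to the pathway and cell type markers (blue). Each point is a gene, black bars are medians and dashed lines mark 1.5-fold; the AKT and mTOR genes and the responsive lists cluster around 0, while the oligodendrocyte markers have a median of -2.71.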

How the data were processed

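RNA of cerebrum at postnatal day 14 had been hybridised to Affymetrix mouse genome arrays, 1 per genotype. The deposited values are linear intensities per probe set, which the authors calculated with MAS5, default settings and global scaling; MAS5 is also named in the submitters' processing notes. No detection calls were used. Of 45101 probe sets, 34958 were paired with 1 gene by the platform annotation, 932 with several and 9211 with none, and only the first were named; 34754 matched the RefSeq table of GRCm38.p6 by gene identifier, which gave current symbols.

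A gene took its probe set of highest mean signal. The background level was the higher of the 95th percentiles of 151 probe sets of olfactory, vomeronasal and taste receptors, keratin-associated proteins and defensins on the 2 arrays, 48.4 and 49.0. Signals under it were raised to it for log2 ratios of genes, and genes under it on both arrays were left out. Ratios of single probe sets use signals as deposited. Genes at least 1.5-fold or 2-fold different were counted.

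The 8 genes, lists and thresholds were chosen with earlier results of these data known. The text names every probe set of the 8 genes, in each role the 3 genes of highest signal and those past 1.5-fold, and a few fixed genes; others were chosen after their values were seen. With 2 arrays no likeness of pattern between genes was computed. Alternatives changed the probe set, the normalization and the background level. The scripts were tested on simulated data. Python 3.11.15, numpy 2.4.6, pandas 2.3.3, scipy 1.17.1 and matplotlib 3.10.9 were used. The number of arrays limits the precision.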

Additional observations from a re-analysis of the deposited data

How the results depend on the processing

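No paired analysis was possible because there is only 1 array for each genotype. Under 9 alternatives, no gene of the 8 was past 1.5-fold except 1, Rictor, with the probe set of largest decrease. Of 71 values of the 8 genes under alternatives, 5 changed sign, and Tsc2 had no probe set left when only unique ones were used. The ranges over all settings were -0.18 to 0.25 for Akt1, -0.54 to 0.34 for Akt2, -0.67 to -0.047 for Rictor and -0.34 to 0.19 for Tsc1. The range for Rheb was 0.24 to 0.28, but Rheb has a single probe set, so the alternatives that change the probe set could not move it. The median of the 8 genes ran from -0.17 with the probe set of largest decrease to 0.11 with that of largest increase.

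Of the further pathway genes, with each gene's largest decrease 5 were at least 1.5-fold lower, and 1 each with unique probe sets only, quantile normalization and the background level at the 99th percentile. By quantile normalization 4 were at least 1.5-fold higher, beside 3 by the main choice, and with the probe set of largest increase 9 were. Their median was -0.10 and 0.12 with these 2 choices of probe set, which move the median of all genes to -0.068 and 0.10 by construction. Ddit4l turned to -0.036 with the largest decrease, and Psat1 to 0.16 with the largest increase. Tfeb moved to -0.0049 at the 99th percentile, where the level was 157.

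Over all genes, 492 were at least 1.5-fold lower, with 1122 under the largest decrease, 232 at the 99th percentile and 1689 with no background level. At least 1.5-fold higher were 594, and 1073 with the largest increase, 220 and 2226. At 2-fold, 143 were lower, and 302, 67 and 980 in the same order; 104 were higher, and 182, 31 and 1232. The share of 1.5-fold calls among the 8 genes was 0 by the main choice under each of these levels. Dim probe sets limit Rptor and Rictor, whose remaining probe sets lie near or under background.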

Other observations

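Families next to the pathway were read after their neighbours' values had been seen, by name alone. Of 6 measured genes for insulin-like growth factor binding proteins, which hold Igf1 and Igf2 outside the cell, 1 was at least 1.5-fold higher in the mutant. None was lower by as much. Of all measured genes 4.27% were at least 1.5-fold higher and 3.54% lower. The higher gene was Igfbp3, at 394 on the wild-type array against 619 on the mutant array. Igfbp2 stood at 3823 and 4679 and Igfbp5 at 3855 and 3686. The Ywha genes, whose proteins bind many substrates phosphorylated by AKT, were 5 of 6 lower with a median log2 ratio of -0.10, none by 1.5-fold, with Ywhaz at 16932 and 15508. Of 7 further initiation factor 4 genes, which mTORC1 serves through its translation targets, none was 1.5-fold different, and Eif4a2 stood at 14399 and 12126. The class III PI3-kinase genes Pik3c3, at 741 and 795, and Pik3r4, at 774 and 774, were level.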
